A study of Mus musculus with 6 samples.

Results

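The 8 genes described here were Igsf8, its immunoglobulin superfamily relatives Ptgfrn and Igsf3, and the tetraspanins Cd9, Cd81, Cd82, Cd151 and Cd63. They were 8 of 41388 genes counted, and all 8 were among the 14533 that passed the filter on low counts (CPM, the count scaled to a fixed library size, above 1 in at least 2 samples). Igsf8 was chosen by its rise in Postn-/- samples in the contrast examined below, so its difference is given as a description with no test. The other 7 were taken because they are relatives or binding partners, and their differences were tested.

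The study asked how chondrocytes of mice that lack periostin, a matricellular protein encoded by Postn, differ in gene expression from wild-type chondrocytes at baseline. The Postn-/- group held 3 samples from mice homozygous for the global knockout allele Postn tm1Jmol/J on a B6129SF2/J background, and the wt group held 3 samples from littermates, with heterozygous crosses as the source of both. The mice were males of 21 days with the strain label B6/129, the cells came from cartilage of the femoral head, and RNA was taken after 2 days of culture without treatment. Libraries were made from full-length cDNA with a low-input SMARTer kit and sequenced as single-end reads of 50 bases. Postn-/- libraries 1, 2 and 3 held 25775101, 24310717 and 20587640 counts, and wt libraries 1, 2 and 3 held 26572260, 22441992 and 20646419.

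The targeted gene was measured first. Postn was at 4.66, 4.27 and 5.67 CPM in Postn-/- samples and at 10.1, 10.3 and 6.90 CPM in wt samples, after TMM normalisation, which corrects library sizes for the make-up of the RNA. The highest knockout value was below the lowest wt value, a log2 fold change of -0.91 ± 0.22 (SE) with adjusted p = 0.717. Reads remained in the knockout, and counts over the whole gene do not separate exons inside from exons outside the deletion. Markers of chondrocytes were abundant, with 9 of 9 tested and Comp the highest at a mean of 2421 RPKM (CPM divided by exon length in kb). These 9 markers summed to 9802, 7078 and 9073 RPKM in the knockout and to 5886, 8785 and 7490 RPKM in wt. The type II collagen gene Col2a1 was the 1 marker of this list that passed an unadjusted threshold of 0.05, with a log2 fold change of 0.68 ± 0.21 (SE), adjusted p = 0.717. Fibroblast markers had Dcn the highest at 677 RPKM and sums from 806 to 1480 RPKM over the 6 samples. The rest of this list ranged widely. Lum was at 284.5, Col1a1 at 149.6, Col1a2 at 85.6 and Col3a1 at 14.6 RPKM. Pdgfra was at 1.6 RPKM, and Thy1 was at 0.231 RPKM and below the filter. Markers of leukocytes and osteoclasts summed to 45.9, 29.1 and 21.0 RPKM in Postn-/- and 27.7, 22.8 and 30.9 in wt, with Acp5 the highest at 12.2 and the pan-leukocyte gene Ptprc at 0.262 RPKM. Endothelial markers summed to at most 2.02 RPKM, with Pecam1 the highest, and red cell markers, of which 0 of 6 passed the filter, had Hba-a2 at 0 counts in all 6 samples. Of the tested markers, 0 of 6 for fibroblasts, 0 of 6 for leukocytes and osteoclasts and 0 of 4 for endothelium passed the unadjusted threshold by edgeR, beside 6.30% of all tested genes. Their median log2 fold changes were 0.00, 0.41 and 0.32, with 3 of 6, 5 of 6 and 4 of 4 above 0, and the median of all tested genes was 0.00.

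One library stood apart. On the first principal component, which held 31.8% of the variance of gene-centred log2 CPM, wt replicate 1 was at 47.4 and the other 5 samples lay between -18.4 and 0.206. It also had the lowest summed level of chondrocyte markers, and its part in the results was not tested beyond leaving it out. In bulk RNA, fewer cells of a type and less RNA per cell cannot be told apart.

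Igsf8 and Ptgfrn belong to the EWI family, membrane proteins with immunoglobulin domains named after a short shared amino acid motif, and both bind directly to the tetraspanins Cd9 and Cd81. Tetraspanins are small proteins that cross the membrane several times and gather integrins, proteases and immunoglobulin proteins into lateral complexes, while EWI proteins link these complexes to actin through ezrin, radixin and moesin. Several tetraspanins, Cd63, Cd9 and Cd81 above all, are also used as markers of extracellular vesicles, which chondrocytes release into cartilage matrix.

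Igsf8 (ENSMUSG00000038034, GRCm38 chromosome 1, 172261641 to 172319841, plus strand) had 966, 820 and 908 counts in Postn-/- and 470, 429 and 405 in wt. In CPM the knockout values were 38.8, 33.4 and 43.3, and the wt values were 18.1, 19.4 and 19.4. The wt samples lay close together and every knockout value was above them, in the direction of the rise it was picked for. The means were 38.5 ± 4.97 and 19.0 ± 0.772 CPM (SD, n = 3 each). On the log2 scale the fitted difference was 1.02, or 2.03-fold. Without wt replicate 1 it was 0.99. Among all 14533 tested genes, 79 others had a log2 fold change at least as high, and 3 of these had a wt mean at or above that of Igsf8. They were Mmp3, Apoe and Phlda3, named after their values were seen.

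**Figure D1:**
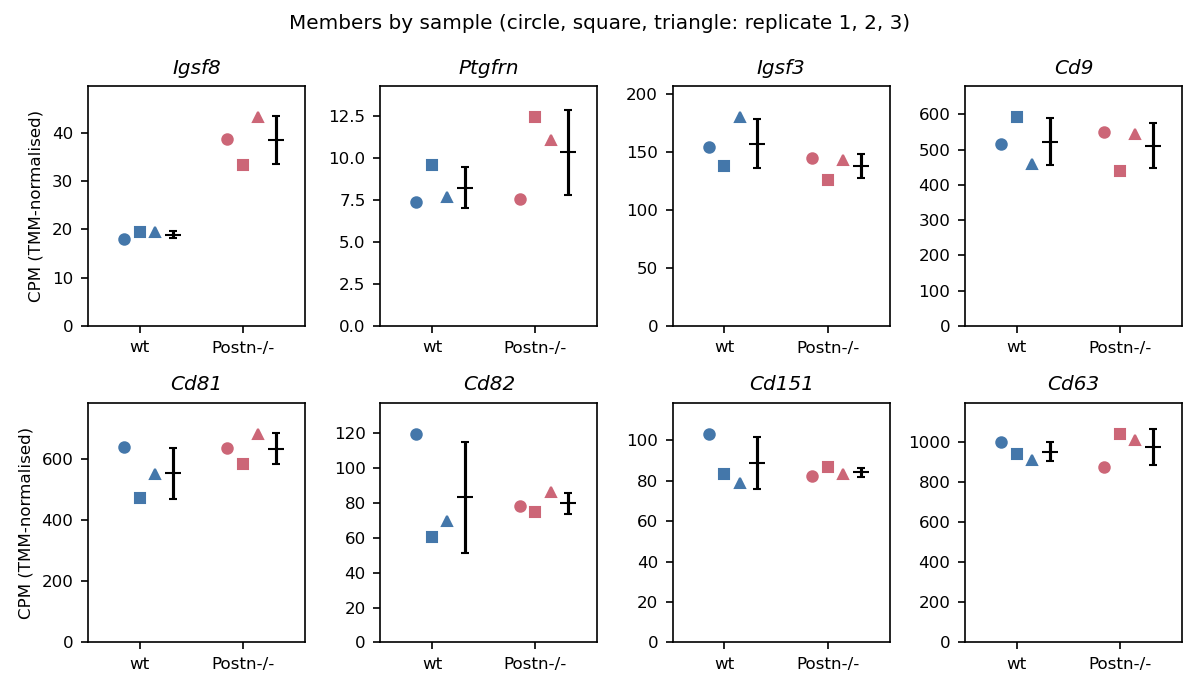
TMM-normalised CPM of the 8 genes in each sample, wt in blue and Postn-/- in red, with circles, squares and triangles for replicates 1, 2 and 3 and black bars for mean ± SD (n = 3). The groups of Igsf8, which was chosen by its rise, are apart, and the groups of the other 7 genes overlap.

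The kit does not mark strand and the strand setting of the counting was not given in the sources used here. For any member, Igsf8 included, reads from an overlapping gene on the opposite strand therefore cannot be told apart from its own, and reads per exon were not analysed here.

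Of the genes within 50 kb of Igsf8, several had few counts. Casq1, a calcium-binding protein of muscle, averaged 2.72 ± 0.860 CPM in the knockout and 3.04 ± 0.778 CPM in controls (SD, n = 3 each), with a log2 fold change of -0.16 and adjusted p = 0.899. Atp1a4 was at 0.574 and 0.906 CPM, with a log2 fold change of -0.64 and adjusted p = 0.769. Kcnj9, Kcnj10 and the antisense transcript Gm17224 were below the filter.

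The RefSeq start of Igsf8 lies downstream of counted exons of 156, 2494, 28 and 131 bases, out of 5217 counted exon bases. The 250 bases before that start are shown to place it. They are set beside the same window of Tspan15, the gene whose pattern over the 6 samples was most like that of Igsf8 (below). That likeness is fixed in part by the choice of Igsf8 for its rise. Capitals mark GGGCGG (a GC box) or CCAAT, searched on both strands with TATAAA and CACGTG.
Igsf8: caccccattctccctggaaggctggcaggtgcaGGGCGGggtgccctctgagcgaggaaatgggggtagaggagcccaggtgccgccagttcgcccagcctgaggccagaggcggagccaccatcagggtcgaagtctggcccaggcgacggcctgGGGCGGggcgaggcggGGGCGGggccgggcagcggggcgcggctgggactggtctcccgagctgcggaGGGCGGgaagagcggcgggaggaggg
Tspan15: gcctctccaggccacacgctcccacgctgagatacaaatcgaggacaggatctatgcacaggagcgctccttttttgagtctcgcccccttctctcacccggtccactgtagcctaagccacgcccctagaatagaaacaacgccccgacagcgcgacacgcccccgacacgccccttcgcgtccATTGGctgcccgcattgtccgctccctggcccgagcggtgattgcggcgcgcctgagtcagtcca
The Igsf8 window (GRCm38.p6, chr1:172312117-172312366, plus strand) was 74.8% G or C and held 4 GC boxes, and the Tspan15 window (chr10:62231219-62231468, minus strand) was 63.2% G or C and held 0 GC boxes and 1 CCAAT. Neither held TATAAA or CACGTG. Of 32851 RefSeq windows of this length, 32.7% held GGGCGG, 33.8% CCAAT, 12.4% TATAAA and 6.02% CACGTG, and the median content of G or C was 52.4%. A match is a description of letters and not a site.

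Of the 7 other members, 0 had an adjusted p of at most 0.05 by edgeR's quasi-likelihood test, against 0.0138% of all tested genes (2 of 14533), and 0 of 7 passed an unadjusted threshold of 0.05, against 6.30% of all tested genes (916, and 425 without Postn-/- replicate 3). With DESeq2 0 of the 7 passed either threshold. By edgeR 1 of the 7 passed the unadjusted threshold without Postn-/- replicate 1 (Ptgfrn) and 1 without wt replicate 1 (Cd82). The 2 genes past the adjusted threshold were Tm4sf1 and Dscaml1, named after their values were seen, and their number fell to 1 on leaving out any sample other than wt replicate 3. Groups that did not overlap were found for 0 of the 7, against 13.6% of all tested genes. The median log2 fold change of the 7 was -0.03, and that of all tested genes was 0.00.

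Among the relatives, Ptgfrn (ENSMUSG00000027864, chromosome 3, 101040232 to 101110278, minus strand), named for a regulatory role at a prostaglandin receptor, had 7.51, 12.4 and 11.1 CPM in Postn-/- and 7.34, 9.59 and 7.67 in wt. Postn-/- replicates 2 and 3 lay above all wt samples, and replicate 1 lay among them. Its log2 fold change was 0.33 ± 0.22 (SE; 95% interval -0.19 to 0.85), adjusted p = 0.734. Without Postn-/- replicate 1 it was 0.52 and passed the unadjusted threshold, with adjusted p = 0.772. Without Postn-/- replicate 2 it fell to 0.18 and did not pass. Igsf3, a relative with a longer row of immunoglobulin domains (ENSMUSG00000042035, chromosome 3, 101377125 to 101463060, plus strand), had 145, 126 and 143 CPM in Postn-/- and 155, 138 and 180 in wt. The groups overlapped, with the highest value in wt replicate 3. The log2 fold change was -0.19 ± 0.13 (95% interval -0.48 to 0.10), adjusted p = 0.732. It was -0.0839 without wt replicate 3 and -0.28 without wt replicate 2. Cd101, the remaining gene of the family and best known from leukocytes, had 9, 29 and 19 counts in Postn-/- and 7, 12 and 15 in wt and did not pass the filter. Ptgfrn, Igsf3 and Cd101 lie on the same chromosome as Postn, 46.6 to 47.0 Mb away, while Igsf8 does not.

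Cd9 and Cd81, the direct partners of Igsf8 and Ptgfrn, were both abundant. Cd9 (ENSMUSG00000030342, chromosome 6, 125460266 to 125494791, minus strand) was at 550, 439 and 545 CPM in Postn-/- and 517, 592 and 458 in wt. The groups covered nearly the same range. Cd9 thus had a log2 fold change of -0.03 ± 0.14 (95% interval -0.36 to 0.30), adjusted p = 0.965, and this was 0.0688 without wt replicate 2. Cd81 (ENSMUSG00000037706, chromosome 7, 143052739 to 143067934, plus strand) had 638, 583 and 683 CPM in Postn-/- and 638, 472 and 551 in wt. Replicate 1 of wt reached the Postn-/- range. The log2 fold change was 0.20 ± 0.14 (95% interval -0.13 to 0.52), adjusted p = 0.742. It passed the unadjusted threshold in the study's own kind of model, limma with surrogate variables, at 0.24 and adjusted p = 0.346. By edgeR it was 0.0946 without wt replicate 2 and 0.31 without wt replicate 1, and neither passed.

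Cd82, a tetraspanin known as a suppressor of metastasis (ENSMUSG00000027215, chromosome 2, 93419111 to 93463140, minus strand), had 78.3, 74.7 and 86.2 CPM in Postn-/- and 120, 60.2 and 69.6 in wt. Replicate 1 of wt was far above the other wt samples, which both lay below all Postn-/- samples. The log2 fold change was -0.06 ± 0.24 (95% interval -0.62 to 0.49), adjusted p = 0.955. Without wt replicate 1 it turned to 0.30 and passed the unadjusted threshold, with adjusted p = 0.833. Cd151, a partner of laminin-binding integrins (ENSMUSG00000025510, chromosome 7, 141467362 to 141471479, plus strand), had 82.2, 86.8 and 83.4 CPM in Postn-/- and 103, 83.6 and 79.0 in wt. The highest value was again in wt replicate 1. Cd151 had a log2 fold change of -0.08 ± 0.12 (95% interval -0.36 to 0.21), adjusted p = 0.884, and it was 0.0492 without that sample. Cd63, a tetraspanin of late endosomes and vesicles (ENSMUSG00000025351, chromosome 10, 128908919 to 128912816, plus strand), had 875, 1040 and 1010 CPM in Postn-/- and 1001, 940 and 909 in wt. The groups overlapped. For Cd63 the log2 fold change was 0.04 ± 0.12 (95% interval -0.25 to 0.32), adjusted p = 0.947, and it was -0.0123 without Postn-/- replicate 2. The upper ends of the 7 intervals lay between 0.10 and 0.85, and a test that missed the threshold does not show that levels were alike.

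**Figure D2:**
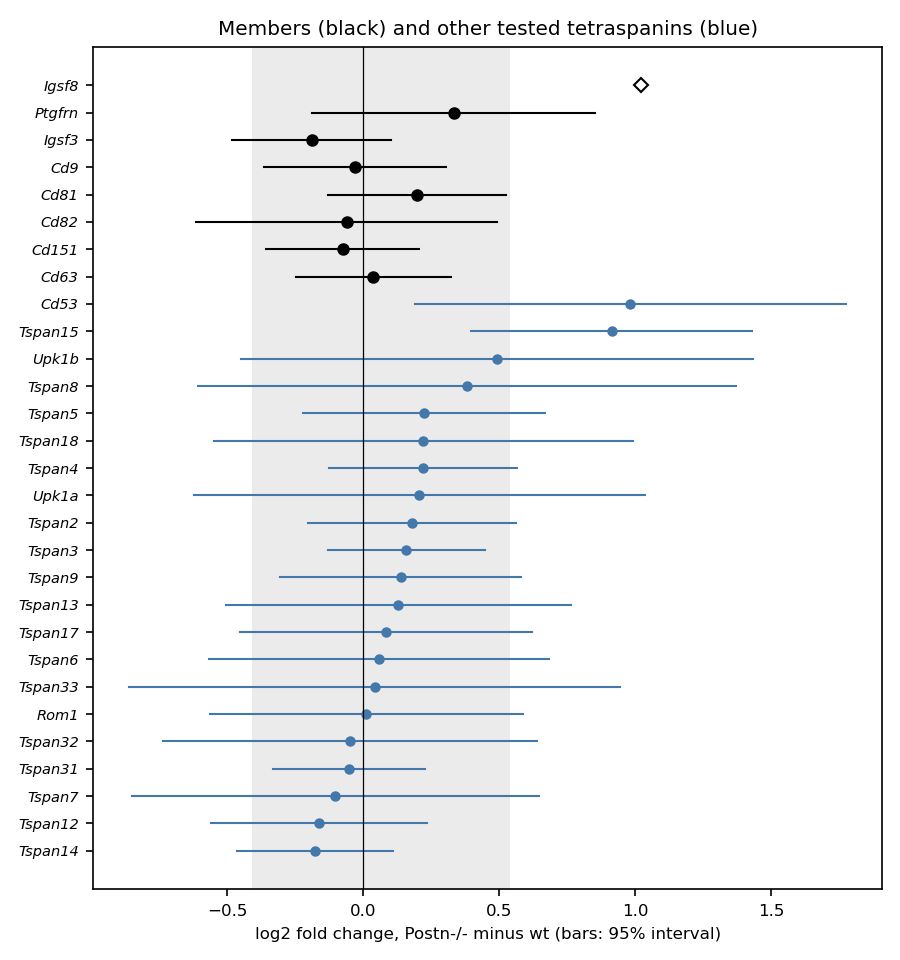
Log2 fold changes (Postn-/- minus wt) of the 8 genes in black and of the 21 other tested tetraspanins in blue, with 95% intervals, and with the 5th to 95th percentile of all tested genes (-0.41 to 0.54) in grey. Igsf8, the open diamond, is drawn with no interval because it was chosen on this contrast, and the intervals of the other 7 members cover 0.

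Some reads of the members could also match other genes, and only unique, unambiguous alignments were counted. The shares given here are of words in all annotated transcripts, not of reads or of the counted exons. Transcripts of Cd9 shared 14.4% of their 50-base words with other genes, and this share was 11.1% for Cd63, 5.92% for Igsf8, 4.80% for Cd151, 2.78% for Igsf3, 0.870% for Cd81 and 0% for Ptgfrn and Cd82. The other gene with most of these words was the pseudogene Cd63-ps for Cd63.

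Levels per exon length, in RPKM over the 6 samples, put Cd63 first at 930 (range 819 to 1020), with no other EWI or tetraspanin gene in its range. Cd81 at 261, Tspan4 at 256 and Cd9 at 251 followed, and their ranges overlapped. Cd151 was at 42.7 and Cd82 at 26.9, the latter overlapping Rom1 and Tspan12. Igsf3 at 20.1 was the highest EWI gene, Igsf8 was at 5.49 (3.39 to 8.45) and Ptgfrn at 1.57 (1.22 to 2.13), and these 3 ranges did not overlap. The Igsf3 range overlapped those of Cd82, Rom1 and Tspan12, and the Igsf8 range those of Tspan2, Tspan17, Tspan9, Tspan7 and Tspan13. The Igsf8 level depends on the exon length used. RPKM divides by all 5217 counted exon bases, and if no read came from its longest exon, of 2494 bases, the mean level would be 10.5 RPKM, and the Igsf8 shares and EWI sums that follow would be higher. Of the summed EWI level, Igsf8 made up 26.1% ± 1.57 in the knockout and 13.7% ± 1.44 in controls (SD, n = 3 each), and Igsf3 66.8% ± 2.06 and 80.4% ± 2.71, shares that the choice of Igsf8 fixes in part. The summed EWI level was 28.2 ± 2.16 and 26.5 ± 3.26 RPKM, and the groups overlapped. Cd9 and Cd81 together were 18.8 ± 0.603 times this sum in Postn-/- and 18.9 ± 2.83 times in wt. The 5 member tetraspanins made up 65.3% ± 1.81 of all tetraspanin RPKM in Postn-/- and 66.0% ± 1.28 in wt.

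**Figure D3:**
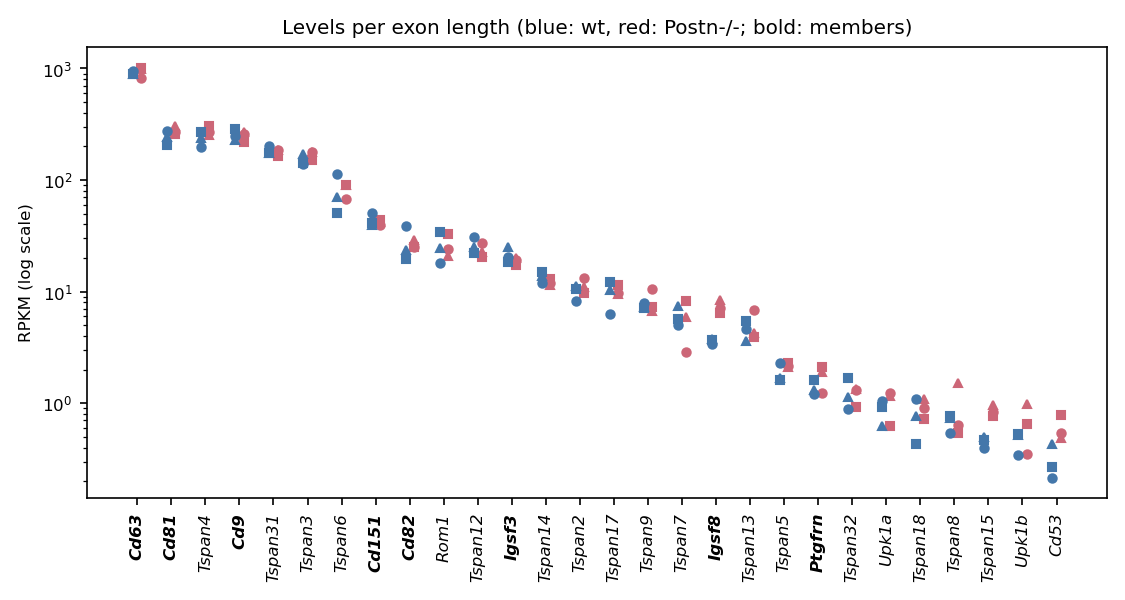
RPKM on a log scale of the 28 highest of 35 EWI and tetraspanin genes in each sample, in order of the mean, wt in blue and Postn-/- in red, with members in bold. Cd63 stands above all others, and Igsf8 lies in the lower part of the order.

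Of 26 other tetraspanins, 21 were tested, and 2 passed the unadjusted threshold, both higher in Postn-/-, against 3.95% of all tested genes in that direction. Tspan15, known as a partner of the sheddase Adam10, was at 3.13, 2.77 and 3.43 CPM in Postn-/- and 1.46, 1.72 and 1.77 in wt, and every Postn-/- sample was above every wt sample. Its log2 fold change was 0.91 ± 0.22 (95% interval 0.40 to 1.43), adjusted p = 0.717. Cd53, a tetraspanin of leukocytes, was at 1.57, 2.16 and 1.33 CPM in Postn-/- and 0.615, 0.769 and 1.20 in wt, and its log2 fold change was 0.98 ± 0.34, adjusted p = 0.717. Of its wt samples only replicate 3 was above 1 CPM, so Cd53 passed the filter through the group where it was high. Its call is therefore given as a description. With the filter in all 6 samples the count for this list was 1. The leukocyte and osteoclast markers whose sums are given above had 0 of 6 tested genes past the threshold and a median of 0.41, and their part in the Cd53 value was not tested. The list as a whole had a median of 0.14, with Tspan14 the lowest at -0.18, and the abundant Tspan4, Tspan31 and Tspan3 were at 0.22, -0.05 and 0.16. The count was 1 without Postn-/- replicate 2 or without wt replicate 2, and 3 without wt replicate 1, where Tspan15 but not Cd53 was among them.

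Partners found in tetraspanin complexes gave 1 of 16 tested genes past the unadjusted threshold (6.25%, beside 6.30% of all tested genes), Met, the receptor of hepatocyte growth factor, at 0.46 ± 0.16 (adjusted p = 0.717). The median was 0.20. The most abundant were Bsg at 838 RPKM, the integrin subunit genes Itgb1 at 70.2 and Itga5 at 41.4, with log2 fold changes of 0.28, 0.23 and 0.23, and the extremes were Cldn1 at 0.61 and Cd44 at -0.21. The count was 0 without Postn-/- replicate 1 or wt replicate 3, and 2 without Postn-/- replicate 2, wt replicate 1 or wt replicate 2, and Met was not among the latter without wt replicate 1. Of the linkers to the cytoskeleton, 1 of 10 passed (10.0%, beside the same 6.30%), Actn4, an actin crosslinker, at 0.26 ± 0.11 (adjusted p = 0.717), with a list median of -0.00. Msn, the gene of moesin, was the most abundant at 105 RPKM with a log2 fold change of 0.00, Cttn followed at 94.0 RPKM with -0.10, and the extremes were Slc9a3r1 at 0.30 and Vcl at -0.28. This count was 0 without Postn-/- replicate 1 or any 1 wt replicate, and 2 without Postn-/- replicate 2 or 3.

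Genes of vesicle formation and release had 4 of 26 tested genes past the unadjusted threshold, all 4 higher in Postn-/-, with a median of 0.17. These were 15.4% of the list, beside 3.95% of all tested genes past the threshold and higher (6.30% in either direction). The lysosomal membrane gene Lamp1 was at 171, 187 and 207 CPM in Postn-/- and 145, 137 and 135 in wt, and the groups did not overlap. The difference on the log2 scale was 0.43 ± 0.11 (95% interval 0.19 to 0.68), adjusted p = 0.717. Vps4a, an ATPase of membrane scission, was at 0.28, and the small GTPase genes Rab11a and Rab31 were at 0.25 and 0.23, each with adjusted p = 0.717. The most abundant genes were Sdc4 at 820 RPKM, Smpd3 at 308 and Sdc2 at 293, with log2 fold changes of -0.16, -0.16 and -0.19, and Arf6 was lowest at -0.34. The count was 2 without Postn-/- replicate 1, Postn-/- replicate 3 or wt replicate 3, 7 without wt replicate 2, and 3 without wt replicate 1, where Lamp1 and Vps4a were among them. The count over all tested genes moved too, to 868, 425 and 878 without Postn-/- replicate 1, Postn-/- replicate 3 and wt replicate 3, 1257 without wt replicate 2 and 787 without wt replicate 1. Of the enzymes that add or remove palmitate, a lipid that tetraspanins carry, 0 of 7 passed the unadjusted threshold by edgeR, with a median of 0.10, Lypla2 highest at 0.40 and Zdhhc20 lowest at -0.09. The most abundant of these were Zdhhc6, Zdhhc20 and Lypla1 at 29.0, 28.8 and 19.4 RPKM. Over these 5 lists, 8 of 80 tested genes passed (10.0%, beside 6.30% of all tested genes), all 8 higher in Postn-/-, and the median was 0.14. The 8 include Cd53, which passed the filter on low counts through its Postn-/- values. Of the 916 tested genes that passed in all, 574 (62.7%) were higher and 342 lower, and whether the lists differ from this was not tested.

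**Figure D4:**
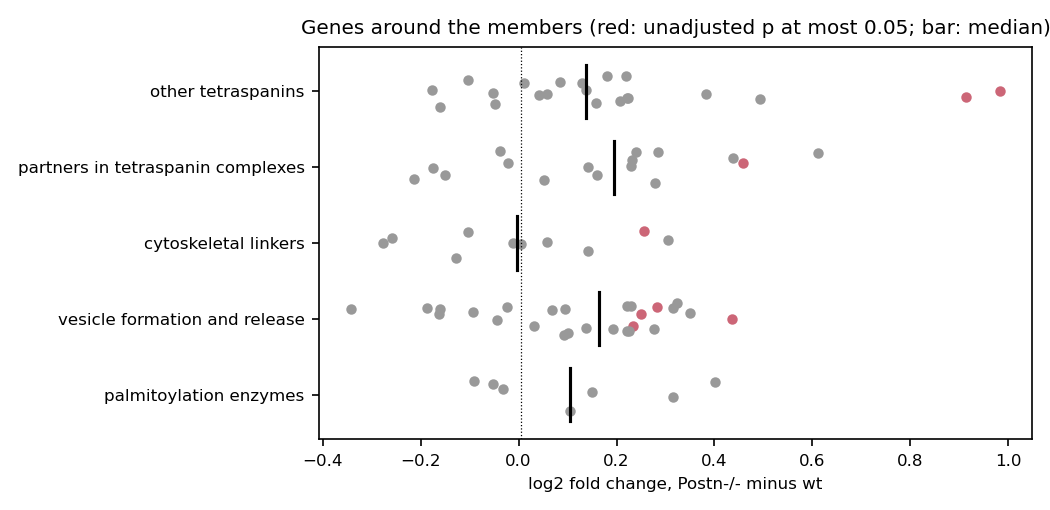
Log2 fold changes (Postn-/- minus wt) of the tested genes of 5 lists, each point a gene, red past the unadjusted threshold of 0.05, with bars at the list medians and a dotted line at the median of all tested genes. The 8 red points lie to the right of 0.

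The pattern of Igsf8 over the 6 samples was compared with that of each tested gene by the root mean square difference of gene-centred log2 CPM. Igsf8 was chosen by its rise in these same samples. Genes with a like rise are therefore bound to come out close, and genes without one far, so the order is a description only. The closest was Tspan15 at 0.0844, followed by Vmn2r100 at 0.115, P2ry2 at 0.117, Trim75 at 0.123 and Vat1 at 0.145. The nucleotide receptor gene P2ry2 was at 6.51, 4.64 and 7.43 CPM in Postn-/- and 2.92, 3.21 and 3.50 in wt, and Vat1, a vesicle membrane protein gene, at 68.9, 60.6 and 78.7 and at 42.7, 37.4 and 40.7. Vmn2r100 and Trim75 had at most 1.38 CPM in any sample, and in wt at most 0.527 and 0.679 CPM. Both therefore passed the filter on low counts through the group where they were high, as Cd53 did. Cd81 was the closest of the other members at 0.434, with 1985 genes closer, and Igsf3 the farthest at 0.611, with 9885 genes closer.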

How the data were processed

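RNA of chondrocytes from 3 Postn-/- and 3 wt mice was compared. The authors aligned reads with STAR 2.0.4b and ran featureCounts 1.4.5 on unique, unambiguous alignments. Its raw counts were deposited by gene. The deposited CPM is each count over the library total, and the deposited RPKM is that CPM over exon length in kb. The submitters' notes name mm9, but exon positions matched GRCm38, and 40340 of 41388 identifiers (97.5%) matched GENCODE M21. The 355 rRNA genes, and genes not above 1 CPM in 2 or more samples, were dropped. In R 4.3.3, edgeR 4.0.16 (TMM, quasi-likelihood test, no covariates) was fitted to all 14533 genes with Benjamini-Hochberg adjustment. SE was taken from the fold change and F, and intervals from edgeR's degrees of freedom. The fit was tested on simulated data. Alternatives were DESeq2 1.42.0, limma 3.58.1 with sva 3.50.0, other scalings and filters, a replicate block and leaving out each sample. The members and lists were chosen with earlier results of these data known. Besides the members, Cd101 and Postn, the genes named were those past the unadjusted threshold, the 3 most abundant and the extremes of each list, genes within 50 kb of Igsf8, the 5 genes most like it, and quoted markers. Vps28 of the vesicle list was not matched. Some genes that this rule names are not reported here.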

Additional observations from a re-analysis of the deposited data

How the results depend on the processing

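The log2 fold change of Igsf8 lay between 0.93 and 1.11 in all 14 alternatives, and 0 of the 7 other members passed the adjusted threshold in any of them. The order of the 8 levels was the same with TMM CPM per length. Signs turned for small differences. With limma and no surrogate variables, Cd9 was at 0.0639, Cd82 at 0.14 and Cd151 at 0.0062. With surrogate variables Cd82 was at 0.0841, and with the replicate block it was at 0.0034. Leaving out 1 sample at a time gave -0.12 to 0.0688 for Cd9, -0.25 to 0.30 for Cd82, -0.15 to 0.0492 for Cd151 and -0.0123 to 0.11 for Cd63. The members past the unadjusted threshold numbered 1 with surrogate variables (Cd81, beside 1882 of all genes) and 0 to 1 with a sample left out.

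Counts past the unadjusted threshold moved more, and the cause was not tested. With DESeq2 size factors, linkers had 0 and vesicle genes 2, beside 926 of all genes. With no filter linkers had 0 and vesicle genes 2, beside 1797 of all genes, from a larger set of tested genes. Other tetraspanins had 1 with the filter in all 6 samples, beside 806 of all genes, from a smaller tested set. With limma without surrogate variables they had 1, beside 1337 of all genes. DESeq2's own test gave 2 vesicle genes, beside 873 of all genes. With surrogate variables partners had 5, linkers 2, vesicle genes 11 and all genes 1882. Leaving out 1 sample gave 1 to 3 other tetraspanins, 0 to 2 partners, 0 to 2 linkers, 2 to 7 vesicle genes and 425 to 1257 of all genes. All genes past the adjusted threshold numbered 1 with upper quartile scaling, 9 with no filter, 0 with the filter in all 6 samples, 11 with DESeq2, 1 with limma without surrogate variables, 3 with them, 1 with the replicate block and 1 to 2 with a sample left out.

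The labels give replicate numbers but no shared source. Deviations of same-numbered samples correlated across genes at 0.0824, 0.155 and 0.143, and each sample correlated best with its own number, a hint from the data and not the design. With the block, partners had 2 genes, vesicle genes 6 and all genes 1188 past the unadjusted threshold. Counts near the filter, as for Cd53 and Vmn2r100, limit precision.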
